A study of Mus musculus with 3 samples.

Results

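The regions described here are stretches of mouse mammary gland chromatin that were bound by estrogen receptor α (ERα) after estradiol and that held a forkhead motif but none of 3 other motifs expected at ERα sites. They were the intervals covered by an ERα peak in both ChIP-seq replicates (at least 1 bp, chromosomes 1 to 19 and X, mouse assembly mm9). The window of 400 bp around the midpoint of each had to hold the forkhead consensus TATTTAC or TGTTTAC exactly. It also had to lack the palindromic estrogen response element (ERE) GGTCANNNTGACC with at most 1 mismatch, the AP1 element TGACTCA or TGAGTCA, and the SF1 element CAAGGTCA. All motifs were searched on both strands. The rule was met by 470 of the 6243 shared regions, or 7.53% (exact Clopper-Pearson 95% interval 6.89 to 8.21), which are called forkhead-only regions below. They made up 53.7% of the 876 shared regions with a forkhead match, and 248 of these 876 (28.3%) also held an ERE. No region was dropped for missing sequence. In 51 of the 470 the shared interval was narrower than the window, so that a match could lie outside the interval.

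The glands (#4) came from wild-type female BALB/c mice (BALB/cJ in the study's methods) whose ovaries had been removed at 6 weeks of age and which received 100 ng of 17β-estradiol subcutaneously after a rest of 10 days. Glands were collected 2 h later, and those of 6 mice made up each of the 2 ERα ChIP pools, with 1 input library as the control in peak calling. ChIP-seq recovers with an antibody the DNA that a protein occupies and sequences it, so that bound sites appear as local excesses of reads, or peaks. Without a vehicle-treated ChIP library among the samples, the peaks describe binding after estradiol and not a change with it.

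ERα is a nuclear receptor that binds DNA as a dimer at the ERE, whose arms are inverted copies of a short half-site, and that can also be held at chromatin by other bound proteins. Forkhead factors such as FOXA1 bind the TGTTTAC type of sequence and are known as pioneer factors, which reach their sites in compacted chromatin and open it for others, ERα among them. In the mammary gland FOXA1 is found in the hormone-sensing luminal cells, but several forkhead proteins recognise much the same letters, so a match does not name the protein that sits on it. The study also found the FOXA1 motif enriched in these ERα sites, so its presence there is not independent evidence.

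The sequences of 9 of these regions show the range of arrangements. They were read from NCBIM37, the assembly also called mm9, with capitals marking the forkhead match and, where a second block of capitals is present, the 13 bases most like an ERE. The first group comprises 3 of the highest-scoring regions. They lay 17451 bp downstream of the start of 9130204K15Rik (chr11:79656590-79656712, plus strand), in an intergenic stretch with no transcription start site (TSS) within 100 kb (chr6:117283941-117284003, plus strand) and 357 bp upstream of Pdk4 (chr6:5446610-5446670, plus strand).
9130204K15Rik: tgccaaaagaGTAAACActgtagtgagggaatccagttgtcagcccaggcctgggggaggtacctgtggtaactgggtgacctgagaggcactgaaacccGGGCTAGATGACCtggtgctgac
Chromosome 6 intergenic: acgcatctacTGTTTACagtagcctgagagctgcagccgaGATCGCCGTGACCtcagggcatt
Pdk4: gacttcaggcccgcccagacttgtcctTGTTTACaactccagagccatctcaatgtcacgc
The next 4 lay nearest to genes that estradiol induced in the study: Nfil3 (chr13:53132949-53133009, plus strand), Fos (chr12:86826934-86826994, plus strand), Errfi1 (chr4:150245780-150245882, plus strand) and Nr4a1 (chr15:101078617-101078690, plus strand).
Nfil3: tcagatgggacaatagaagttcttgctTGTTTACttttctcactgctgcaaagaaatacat
Fos: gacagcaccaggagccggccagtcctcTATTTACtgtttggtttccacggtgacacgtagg
Errfi1: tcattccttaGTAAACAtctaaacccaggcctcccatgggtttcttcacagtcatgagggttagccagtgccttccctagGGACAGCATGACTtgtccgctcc
Nr4a1: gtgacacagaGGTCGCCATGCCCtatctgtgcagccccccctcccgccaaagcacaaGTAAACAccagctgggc
The last 2 are a region in the gene of a forkhead factor, Foxo3 (chr10:41971243-41971303, minus strand), and the lowest-scoring region, in an intron of Rap1a (chr3:105560171-105560231, minus strand). Both are shown so that the strand carrying the consensus reads from left to right.
Foxo3: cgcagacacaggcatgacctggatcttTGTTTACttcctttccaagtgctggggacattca
Rap1a: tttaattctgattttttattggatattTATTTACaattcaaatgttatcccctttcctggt
A capital block GTAAACA is TGTTTAC read on the other strand. The best ERE-like 13-mers near 9130204K15Rik, Errfi1 and Nr4a1 and in the chromosome 6 region each differed from the consensus at 2 of its 10 fixed positions, 1 more than the rule counts as an ERE.

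The forkhead consensus was more frequent in bound regions than in nearby DNA. Control windows were centred 5 kb to each side of each shared region and overlapped no peak of either list, which gave 12034 windows. Of these, 9.61% met the forkhead-only rule, against 7.53% of the shared regions. The rule was thus met less often in shared regions, a larger part of which held an ERE, AP1 or SF1 element. The comparison was then limited, on both sides, to windows that lacked the ERE, AP1 and SF1 elements. Among these, 470 of 3268 shared regions (14.4%, 13.2 to 15.6) and 1156 of 10721 flanking windows (10.8%, 10.2 to 11.4) held the forkhead consensus. The odds ratio was 1.39 and the p-value of the two-sided Fisher's exact test 3.89e-08. At the pooled flanking rate, 352 of the 3268 windows would hold a match. Most of the 470 regions thus correspond in number to what the surrounding DNA carries, and the excess at that rate was 118 regions. These counts take no account of GC content, which differed: 4117 of the 10721 flanking windows and 721 of the 3268 shared regions fell in its lowest tertile. The flanking forkhead share was highest in that tertile (15.4%, against 9.60% in the middle and 5.97% in the highest). The pooled rate thus gives that tertile more weight than the shared regions do, and the excess was not recomputed within tertiles. Regions of 1 genome are not replicates. The p-value of this Fisher's exact test, like the others below, therefore describes the regions of these 2 lists and not the spread between animals.

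Base composition moved with this comparison, since the forkhead consensus is rich in A and T. Forkhead-only windows had a median GC content of 46.2%, against 42.5% in the flanking windows that met the same rule and 48.8% in the 2798 shared regions with none of the 4 motifs. When the windows without ERE, AP1 and SF1 were split into tertiles by GC content, the forkhead share was higher in shared regions in each. It was 21.2% against 15.4% in the lowest tertile (exact p = 1.24e-04, Fisher's exact test), 16.0% against 9.60% in the middle tertile (exact p = 3.01e-08) and 10.0% against 5.97% in the highest tertile (exact p = 1.53e-06). The odds ratios were 1.49, 1.79 and 1.75 from the lowest to the highest tertile, each above the 1.39 of all windows. The difference was thus not smaller within tertiles of GC content than over all windows. Windows within a tertile can still differ in GC content, and the part of such differences in the excess was not tested.

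Of the 2 spellings, the G form TGTTTAC differed from the flanking windows, and the A form TATTTAC, taken over all windows, did not pass the test. A match of the G form was present in 8.57% of shared regions without ERE, AP1 or SF1 and in 5.01% of the flanking windows (odds ratio 1.78, exact p = 3.14e-13, Fisher's exact test). The A form was present in 6.40% and 6.09% (odds ratio 1.05, exact p = 0.533). Within tertiles of GC content, the G form was higher in shared regions in all 3, with adjusted p-values of 0.00202, 2.46e-09 and 2.73e-05 from the lowest to the highest tertile.

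**Figure D1:**
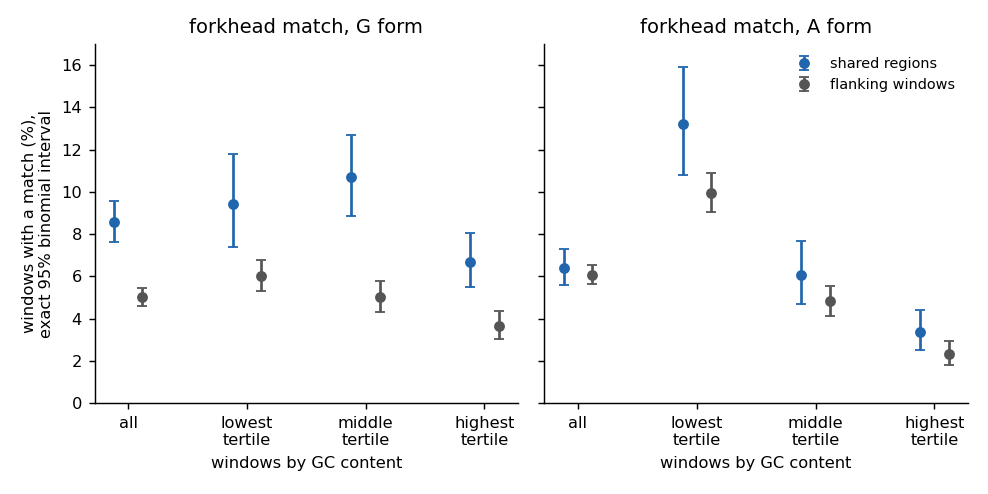
Share of windows (%, y axis) with a forkhead match of the G form (left) or the A form (right) among windows without ERE, AP1 or SF1, for all windows and within tertiles of GC content (x axis); blue points are shared regions, grey points flanking windows, and bars are exact 95% binomial intervals. The blue and grey intervals of the G form are apart for all windows (8.57% against 5.01%) and in each tertile, whereas those of the A form overlap for all windows (6.40% against 6.09%).

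The share of the A form was 13.2% against 9.96% in the lowest tertile of GC content (exact adjusted p = 0.0179, Fisher's exact test over 6 comparisons), 6.06% against 4.82% in the middle tertile (exact adjusted p = 0.110) and 3.38% against 2.34% in the highest (exact adjusted p = 0.0609). The A form was thus the higher in shared regions in all 3 tertiles, and the difference passed the adjusted test in 1 of them. Splitting by form and by GC content together was chosen after the data had been seen.

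A direct comparison of the forms gave the same order, with less certainty within tertiles of GC content. Of the 470 forkhead-only regions, 280 (59.6%) held at least 1 G form match, against 537 of 1156 flanking windows that met the rule (46.5%, odds ratio 1.70, exact adjusted p = 5.56e-06, Fisher's exact test over 3 comparisons). Within the middle tertile of GC content the shares were 66.9% and 52.2% (exact adjusted p = 0.00659), but in the lowest tertile they were 44.4% and 39.1% (exact adjusted p = 0.304) and in the highest 66.9% and 61.3% (exact adjusted p = 0.304). The longer spelling TGTTTACTT occurred in 8.94% of forkhead-only regions and in 5.54% of the flanking windows (exact adjusted p = 0.0218). At least 2 matches were found in 38 regions (8.09%) and in 7.44% of the flanking windows, a difference that did not pass (odds ratio 1.09, exact adjusted p = 0.680). The leftmost match of the window was on the plus strand of the assembly in 228 of 470 regions (48.5%, 43.9 to 53.1). That strand is arbitrary, so the share does not describe orientation relative to a gene.

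Position within the region gave a weaker and less settled picture. A match lay within 50 bp of the midpoint in 144 of 470 forkhead-only regions (30.6%, 26.5 to 35.0) and in 310 of 1156 flanking windows (26.8%, 24.3 to 29.5), a difference that did not pass the test (exact p = 0.127, Fisher's exact test). Within 100 bp the shares were 59.1% and 49.7%, and here the difference passed (exact p = 6.76e-04). The median distance of the nearest match from the midpoint was 79.5 bp, against 101 bp in the flanking windows. Because regions were on median 542.5 bp wide and peak summits are not given in the lists, the midpoint marks the bound site only roughly.

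Counting all matches out to 2 kb on either side placed the forms differently around the 3268 regions without ERE, AP1 or SF1. The G form reached 2.82 and 2.72 matches per 100 regions in the 100-bp bins left and right of the midpoint. In the 30 bins beyond 500 bp it averaged 1.42 and ranged from 1.01 to 1.90, so both central bins were above every distant one. The A form had 1.90 and 1.5 matches in the central bins against a mean of 1.58 and a range of 1.16 to 2.08 further out, and both bins lay inside that range. In the 1942 regions that held an ERE, the G form had 1.70 and 1.96 matches per 100 regions in the central bins against a mean of 1.43 and a highest distant bin of 1.91. Its highest bins there were off centre, with 2.63 from 100 to 200 bp right of the midpoint and 2.21 from 200 to 300 bp left of it. The profile is a description, without a test.

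**Figure D2:**
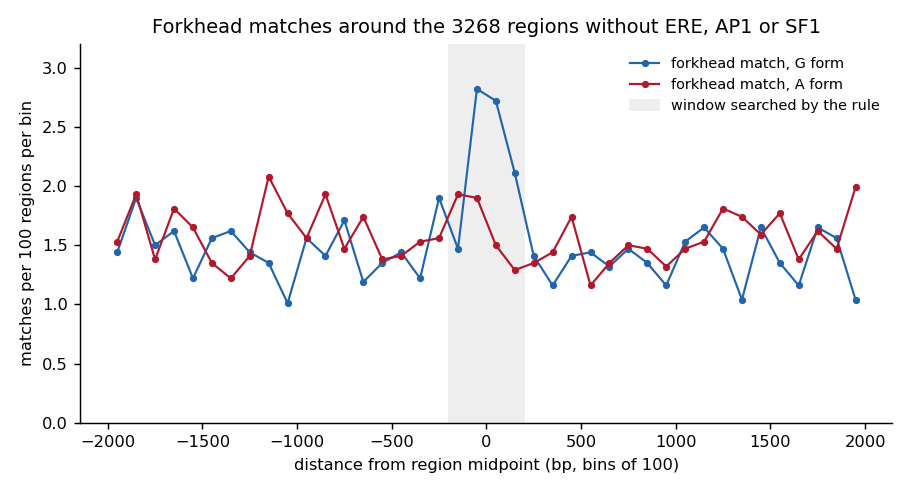
Forkhead matches per 100 regions (y axis) in bins of 100 bp by distance from the region midpoint (x axis, bp) around the 3268 shared regions without ERE, AP1 or SF1, blue for the G form and red for the A form, with the window searched by the rule shaded. The G form peaks at 2.82 and 2.72 beside the midpoint, and the A form stays within its distant range of 1.16 to 2.08 there.

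Whether another motif was present made no detectable difference to how often a forkhead match occurred. The share was 14.4% in regions without ERE, AP1 and SF1, 12.8% in the 1942 with an ERE, 15.2% in the 742 with AP1 and no ERE, and 15.1% in the 350 with SF1 and no ERE. None of the 3 differences from the first passed (exact adjusted p = 0.315, 0.690 and 0.690, Fisher's exact test), and the odds ratios were 1.15, 0.935 and 0.941.

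Although the rule removed EREs, the forkhead-only regions were rich in weaker versions of the same element. A 13-mer with exactly 2 mismatches to the ERE was the best in 238 of 470 regions (50.6%, 46.0 to 55.2), against 10.6% of flanking windows that met the forkhead-only rule (odds ratio 8.62, exact adjusted p = 6.65e-63, Fisher's exact test over 18 motifs). The half-site AGGTCA, an arm of the ERE that many nuclear receptors share, occurred in 57.7% against 18.5% (exact adjusted p = 1.28e-51). Its extension AAGGTCA, bound by estrogen-related receptors and SF1 as monomers, occurred in 17.4% against 4.93% (exact adjusted p = 6.22e-14). In 133 regions (28.3%) a half-site was present without the 2-mismatch ERE, and in 99 (21.1%, 17.5 to 25) neither was found. The term forkhead-only thus describes the letters the rule searched for, and 371 of 470 regions still held an ERE-like sequence of 1 kind or the other. In the 2798 shared regions with no motif of the rule, the 2-mismatch ERE occurred in 52.2% and the half-site in 53.1%. Neither share differed detectably from that of the forkhead-only regions (exact adjusted p = 0.878 and 0.324, Fisher's exact test). How many of those regions or of the flanking windows held either sequence was not counted.

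Several motifs named for other factors were also more frequent than in the flanking windows. Of 18 motifs searched, 12 were higher in forkhead-only regions and 0 lower at an adjusted p of 0.05. Beside the 3 above, these were the CEBP motif TTGCNNAA (27.4% against 15.1%), the E-box CAGCTG (25.7% against 15.8%), the AP2 motif GCCNNNGGC (14.0% against 7.18%) and a related forkhead spelling, TGTTTGC (11.9% against 6.92%). CEBP proteins are regulators of adipocyte and mammary epithelial differentiation, and AP2 factors are expressed in luminal epithelium. The PAX2 letters GTCACG (7.23% against 3.37%), the SP1 box GGGCGG (7.45% against 4.67%), the steroid receptor palindrome GNACANNNTGTNC (2.98% against 0.692%), the STAT element TTCCNGGAA (2.13% against 0.692%) and the NF1 palindrome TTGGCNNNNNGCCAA with at most 1 mismatch (1.91% against 0.606%) completed the list. The higher GC content of the forkhead-only windows (65.5% above the pooled median, against 43.5% of the flanking windows) moved with the GC-rich motifs among these, and its part in them was not tested. The PAX2 letters and the steroid receptor palindrome can also share bases with an ERE-like sequence. In the chromosome 6 region shown above, the PAX2 letters lie inside the 2-mismatch ERE. Such motifs are not separate from the ERE-like excess, and the overlap was not counted.

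For the GATA motif AGATAA the shares were 23.6% and 23.4% (exact adjusted p = 1.00), and GATA3 is a defining factor of luminal cells. RUNX (TGTGGTT, 8.94% against 11.3%), ETS (GGAAGT, 22.8% against 21.7%), TEAD (GGAATGT, 8.72% against 5.97%), PBX (TGATTGAT, 1.06% against 1.12%) and CRE (TGACGTCA, 0.638% against 0.173%) did not pass the test either, with TEAD closest (exact adjusted p = 0.0692). In 13 of the 470 regions (2.77%) none of the 18 motifs was found. The same count was not made for other shared regions or for flanking windows, so the share has no background beside it. A match is a run of letters and says nothing of occupancy.

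No motif of the panel separated forkhead-only regions from other bound regions once adjusted. Against the 2798 shared regions with none of the 4 motifs of the rule, 0 of 18 motifs passed after adjustment, and 2 had an unadjusted p under 0.05. The 2-mismatch ERE was present in 50.6% and 52.2% (odds ratio 0.939, exact adjusted p = 0.878, Fisher's exact test) and CEBP in 27.4% and 26.7% (exact adjusted p = 0.878). The 2 with the lowest p-values were AAGGTCA, at 17.4% against 12.9%, and SP1, at 7.45% against 11.3% (both exact adjusted p = 0.111).

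**Figure D3:**
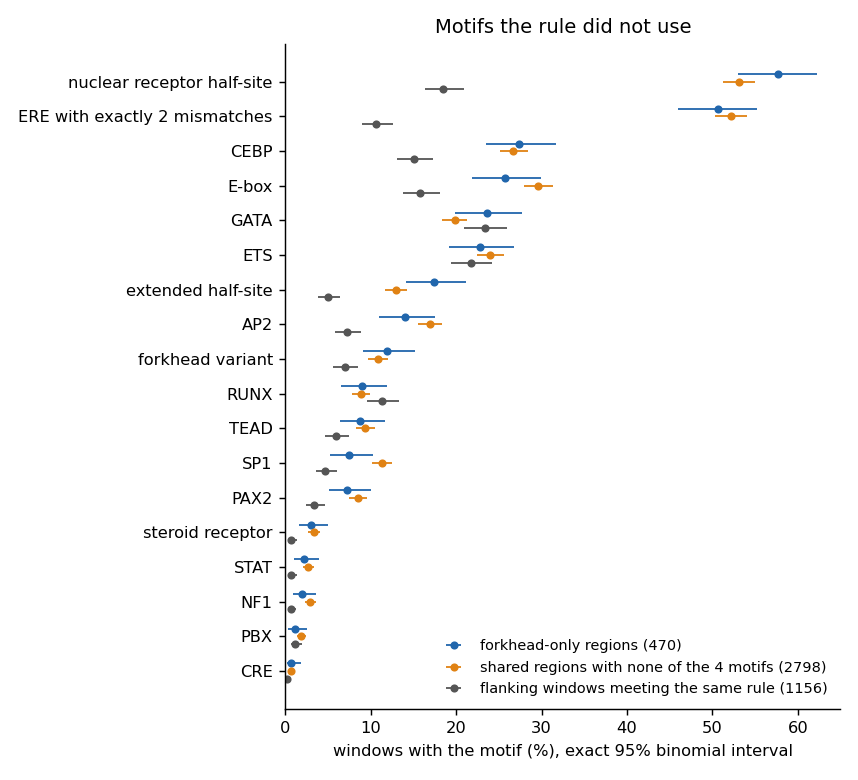
Share of windows (%, x axis) holding each of 18 motifs that the rule did not use (y axis), in the 470 forkhead-only regions (blue), the 2798 shared regions with none of the 4 motifs (orange) and the 1156 flanking windows that meet the forkhead-only rule (grey), with exact 95% binomial intervals. Blue and orange points lie close together throughout, and the half-site (57.7% against 18.5%) and the 2-mismatch ERE (50.6% against 10.6%) stand furthest from grey.

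ERα peaks over forkhead-only regions had lower scores than those over EREs, and no difference was detected from regions with none of the 4 motifs. The score of a peak is −10 log10 of the p-value that the authors' peak caller gave it, and a list holds no score below 80. Forkhead-only regions ran from 80.2 to 3100 in replicate 1 with a median of 215 (quartiles 137 and 365), and from 80.1 to 2600 in replicate 2 with a median of 158 (quartiles 112 and 278). Replicate 1 gave the higher score in 362 of 470 regions (77.0%), a lean seen in 80.2% of all shared regions. In glands pooled from whole tissue, a site bound in fewer cells and a site bound less in each cell cannot be told apart by such a score.

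**Figure D4:**
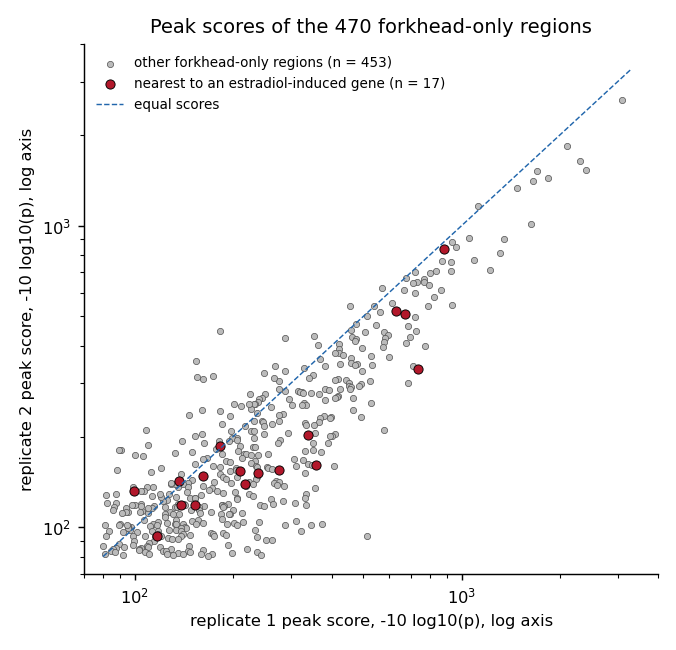
Peak score of each of the 470 forkhead-only regions in replicate 1 (x axis) and replicate 2 (y axis), in units of −10 log10 of the p-value on log axes, with the 17 regions nearest to an induced gene in red and a dashed line where both scores are equal. Most points (362 of 470) lie below the line, and red points are spread from a score near 100 to one above 800.

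Against the ERE regions, 33.0% of forkhead-only regions and 54.1% of ERE regions exceeded their pooled median score, with identical counts in both replicates (odds ratio 0.417, exact adjusted p = 5.21e-16 in each, Fisher's exact test over 6 comparisons). The median scores of ERE regions were 338 and 256. Against the regions with no motif, whose medians were 224 and 159, the shares were 48.5% and 50.3% in replicate 1 (odds ratio 0.933, exact adjusted p = 0.775) and 49.8% and 50% in replicate 2 (odds ratio 0.990, exact adjusted p = 1.00). Against AP1 regions without an ERE the medians were 205 and 158, and neither difference passed (exact adjusted p = 0.775 and 1.00). A p-value of 1e-20 or lower in both replicates was reached by 167 forkhead-only regions (35.5%, 31.2 to 40), by 35.1% of regions with no motif, by 57.7% of ERE regions and by 41.7% of all shared regions.

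**Figure D5:**
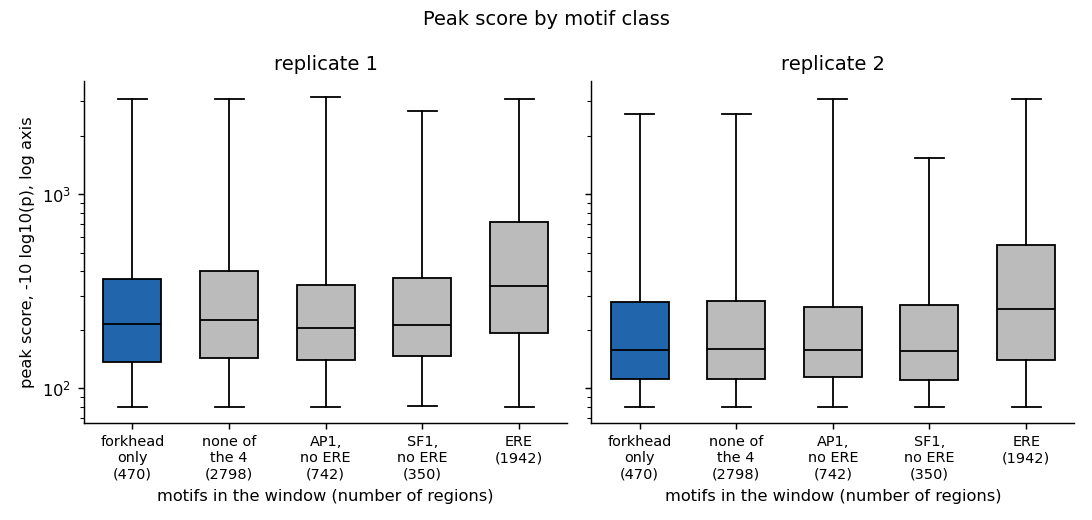
Peak score (y axis, −10 log10 of the p-value, log axis) in replicate 1 (left) and replicate 2 (right) by motif class (x axis, number of regions in brackets), with the median as a line, quartiles as the box and the lowest and highest region as whiskers. The box of the ERE class sits highest, with medians of 338 and 256, and the forkhead-only box (215 and 158) is level with the other classes.

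Peaks of one list were found again in the other most often where they held an ERE. Here peaks were classed by the window around their own midpoint, so that the class did not depend on the other list. Of 731 forkhead-only peaks in replicate 1, 62.1% overlapped a replicate 2 peak, against 78.4% of ERE peaks (exact adjusted p = 4.92e-17, Fisher's exact test over 6 comparisons), 58.9% of peaks with no motif (exact adjusted p = 0.159) and 63.2% of AP1 peaks without an ERE (exact adjusted p = 0.661). Of 540 in replicate 2, 85.2% overlapped a replicate 1 peak, against 95.5% of ERE peaks (exact adjusted p = 1.80e-14), 87.4% of AP1 peaks without an ERE (exact adjusted p = 0.310) and 89.4% of peaks with no motif (odds ratio 0.682, exact adjusted p = 0.0123). The difference from peaks with no motif was lost among peaks with a p-value of 1e-10 or lower, where the shares were 94.1% and 95.4% (exact p = 0.261).

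Among the forkhead-only regions themselves, the score differed with the ERE-like sequence, and no difference with the form, number or position of the forkhead match was detected. Regions with a 2-mismatch ERE had median scores of 237 and 173 in the 2 replicates, and those without had 188 and 139. By the lower of its 2 scores, 56.3% of the former and 43.5% of the latter exceeded the median of all 470 (odds ratio 1.67, exact adjusted p = 0.0296, Fisher's exact test over 4 comparisons). The same split taken in each replicate gave 57.1% against 42.7% and 56.3% against 43.5%. For the G form against the A form alone the shares were 51.8% and 47.4% (odds ratio 1.19, exact adjusted p = 0.530), for 2 or more matches against 1 they were 60.5% and 49.1% (odds ratio 1.59, exact adjusted p = 0.472), and for a match within 50 bp of the midpoint against further out both were 50% (exact adjusted p = 1.00). With 38 regions in the smaller group, the comparison by number of matches is the least precise of these.

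The 12 highest-scoring regions, ranked by the lower of the 2 scores, lay from promoter to far intergenic DNA. The first, 17451 bp downstream of 9130204K15Rik, scored 3100 and 2600 (chr11:79656347-79657187). A score of 3100 was held by 17 peaks of the replicate 1 list, so its rank of 3 there was tied. In the replicate 2 list the region ranked 16. Its forkhead match was 164 bp from the midpoint and 93 bp from the 2-mismatch ERE. The second lay 202 bp upstream of Ccdc117 and scored 2101 and 1842 (chr11:5441851-5442933). The third, in an intron of Lcmt1, which encodes a methyltransferase of protein phosphatase 2A, scored 2295 and 1640.

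The next few had no near-ERE in common. A region 20220 bp downstream of the start of Spsb1 scored 2403 and 1528. One in an intron of Traf3ip2, an adaptor of interleukin 17 signalling, scored 1696 and 1514, and its best ERE-like 13-mer had 4 mismatches. The chromosome 6 intergenic region, whose nearest start lay 119904 bp away, scored 1832 and 1442. It had the closest pairing of the sequences shown above, with a forkhead match 16 bp left of the midpoint and a 2-mismatch ERE 17 bp right of it, so that their centres were 33 bp apart. It was also the highest-scoring region with a 2-mismatch ERE and a match within 50 bp of the midpoint, and the Lcmt1 region, whose match lay at 25 bp, the highest without that ERE.

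The remaining 6 of the 12 were near Akr1cl (1650 and 1403), in introns of Zfp423 (1481 and 1331) and Tcf12 (1122 and 1163), near Pdk4 (1631 and 1009), in Pnrc1 (1054 and 907) and 68964 bp upstream of Errfi1 (1349 and 903). Zfp423 is a zinc finger factor of preadipocytes, Tcf12 an E-box binding protein, Pdk4 a kinase that restrains pyruvate oxidation and Pnrc1 a nuclear receptor coactivator. Of the 12, 5 held the 2-mismatch ERE, near 9130204K15Rik, Ccdc117, Tcf12, Pnrc1 and in the chromosome 6 region. The Pdk4 region lay at the promoter, with its TGTTTAC 26 bp from the region midpoint.

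At the other end of the range, the 3 lowest-scoring regions lay on chromosome 15 (131 and 80.9), in an exon of Plekhh3 (80.2 and 86.9) and in an intron of Rap1a, which encodes a small GTPase (167 and 80.1). The Rap1a region held a 2-mismatch ERE, so that this sequence was found at both ends of the range. Only 2 regions held 3 forkhead matches. One lay in an intron of Spred2, an inhibitor of Ras signalling (277 and 225), and the other in an intron of Tcf4, an E-box binding protein (237 and 158). Within the stretch of 209 bp that spans the 3 Spred2 matches, a run of 20 bp occurred more than once. The run held no match itself, but each copy was followed by near-identical bases that end in a forkhead match. Thus 2 of the 3 matches lie in copies of a repeated sequence.

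Forkhead-only regions lay mostly away from promoters. The midpoint of 22 (4.68%, 2.96 to 7.0) was proximal, from 1 kb upstream to 400 bp downstream of the nearest TSS, while 193 (41.1%) were further upstream, 192 (40.9%) further downstream and 63 (13.4%) beyond 100 kb. By gene body, 57.0% were intergenic, 40.4% in introns and 2.55% in exons of protein-coding genes. The proximal share was 7.86% in regions with no motif, and of 7 classes compared none passed after adjustment, the proximal class coming closest (odds ratio 0.575, exact adjusted p = 0.0921, Fisher's exact test). ERE regions were not a usual neighbour: 45 forkhead-only regions (9.57%) had an ERE region within 10 kb, against 11.2% of regions with no motif (odds ratio 0.838, exact p = 0.338). Another forkhead-only region lay within 10 kb of 24 of the 470, and another shared region of any class within 10 kb of 141. No 2 of the forkhead-only windows overlapped. The count of 24 was not set against another class. The median distance to the nearest other shared region was 28583 bp, against 26372.5 bp for regions with no motif and 31972 bp for all shared regions.

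Within 100 kb, the forkhead-only regions were nearest to 384 genes, of which 268 encode proteins and 23 had 2 such regions. Some of these were genes that responded to estradiol in the study. Of the 470, 17 (3.62%, 2.12 to 5.73) were nearest to an induced gene, against 4.28% of all shared regions and 5.08% of those with no motif. Nearest to a repressed gene were 0 of 470, against 0.785% of all shared regions. A count of 0 allows a share of up to 0.638% at 3 counts, and the exact 95% interval reaches 0.782%, next to the background. The induced share turned from below to above that of all shared regions when only TSSs of protein-coding genes were used (6.17% against 5.57%) or any TSS within 100 kb (11.5% against 9.80%), so no direction is read from it. The repressed shares were then 0.213% against 0.993% and 2.77% against 3.22%. The study's lists were drawn from the same tissue and treatment.

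The 17 regions belonged to 15 induced genes, and the 15 regions with the highest lower score are described here. The strongest, 56428 bp upstream of Nfil3, a basic leucine zipper repressor, scored 884 and 835 and held a 2-mismatch ERE 12 bp from its midpoint. Next came a region 2991 bp upstream of Cerk, the ceramide kinase, with 629 and 521. Fos, a subunit of AP1, had 2, each measured from the nearest of its annotated transcript starts, which differed. The one 11080 bp downstream scored 672 and 511, and the one 1445 bp upstream 217 and 139. The downstream Fos region had a TATTTAC 23 bp from the midpoint and no closer ERE than 3 mismatches, in a window of 67.2% GC. Both replicates thus placed the downstream Fos region above the upstream one.

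Errfi1, which encodes a feedback inhibitor of the epidermal growth factor receptor, had a region 16707 bp downstream of its start with 737 and 335. Its TGTTTAC and its 2-mismatch ERE were 73 bp apart. Osbpl3, of the oxysterol-binding family, had an intronic region at 339 and 203, and Saa3, an acute-phase protein, one 4152 bp upstream at 182 and 186. Tmem158 followed with 358 and 161. Together with the region 68964 bp upstream, which was nearer to a noncoding gene, Errfi1 was the nearest protein-coding gene of 2 of the regions described by name.

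The rest scored lower. The promoter of Krt4, a keratin of stratified epithelium, held a region at 276 and 154 with a TATTTAC 20 bp from the midpoint. Dennd2a had an intronic region at 211 and 153 and Plxna1, a semaphorin receptor, one 6324 bp upstream at 238 and 152, both with a 2-mismatch ERE. Gm16485 had a region 9 bp from its start at 162 and 148, with an ERE region 1195 bp away. The half-site but not the 2-mismatch ERE was found in it. The Gm16485 region also lay downstream of the start of Pgr, the progesterone receptor gene. For Pgr the study reported a distal downstream ERα site, whose distance from the Gm16485 region was not measured. Plekhg3 had an intronic region at 136 and 142.

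Nr4a1, an orphan nuclear receptor gene of the immediate early class, had 2 regions 1544 bp apart, 18665 bp and 20209 bp upstream. They scored 139 and 119, and 153 and 118. Both held TGTTTAC, but only the nearer one had a 2-mismatch ERE, 44 bp from the forkhead match. For 3 of the 15 genes all nearest shared regions were forkhead-only, and for 5 an ERE region was also among the nearest. The same was not counted for the rest of the 121 induced genes nearest to any shared region. A gene with a single nearest shared region meets the first condition whenever that region is forkhead-only.

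A few genes that mark mammary cell types were nearest to a forkhead-only region, beside 384 of all 37252 annotated genes (1.03%) and 10.3% of the 3716 genes nearest to any shared region. Of the 43 forkhead family genes, 3 were nearest to any shared region and 1, Foxo3, to a forkhead-only one. That region lay in an intron 25303 bp downstream of the start, scored 402 and 201, and carried a TGTTTAC 28 bp from the midpoint. Among luminal genes, 9 of the 25 annotated were nearest to a shared region and 1, the keratin gene Krt19, to a forkhead-only one (297 and 266). Of 9 basal genes the oxytocin receptor gene Oxtr had one (255 and 159), of 12 adipocyte genes the lipoprotein lipase gene Lpl (139 and 97.3) and of 11 stromal genes the collagen-binding proteoglycan gene Dcn (233 and 256).

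Of 15 early estrogen response genes, 8 were nearest to a shared region and 3 to a forkhead-only one: Fos and Errfi1, described above, and Csf1, the macrophage growth factor gene, whose region lay 6625 bp upstream and scored 117 and 93.5. Of 10 nuclear receptor and coregulator genes, 4 were nearest to a shared region and none to a forkhead-only one. Counts of 0 to 3 genes in a list are too few to set the lists apart, and no difference between lists was tested.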

How the data were processed

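Reads of 51 nt from 1 end were placed on mm9 by the authors with BWA, and MACS then called the peaks of each pool over input DNA with 1e-08 as its p-value limit. The MACS version is not given in the sources used here. The deposited lists hold 9607 and 6819 peaks, each with a score equal to −10 log10 of the p-value from the authors' caller. The lists hold no reads, so depth is not known from them. The methods and the labels name different library kits.

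Overlapping peaks were intersected, leaving out 9 and 7 peaks on other sequences, and no peak ran past a chromosome end of NCBIM37. GENCODE vM1 gave the genes. Shares were compared by two-sided Fisher's exact test with Benjamini-Hochberg adjustment within families. Since only 2 pools exist, variation among animals is unknown, and the 95% intervals (Clopper-Pearson) reflect counting error alone. The overlap, motif and nearest-gene steps were tested on simulated data. Regulated genes were matched by identifier from the study's lists (218 of 220 induced, 272 of 273 repressed), without their values.

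Regions named were the 12 highest and 3 lowest by lower score, those with 3 or more matches, the highest with a match within 50 bp with and without a 2-mismatch ERE, up to 15 nearest to an induced gene, and those nearest to a gene of the marker lists. The members and lists were chosen with earlier results of these data known. Alternatives covered p-values, overlap rules, windows, motif spellings, flanks, TSS sets and each replicate alone. Python 3.11.15, pandas 2.3.3, scipy 1.17.1, pysam 0.24.0 and samtools 1.23.1 were used.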

Additional observations from a re-analysis of the deposited data

How the results depend on the processing

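The forkhead excess over flanking windows kept its direction and passed at 0.05 under all alternatives except the A form alone, which was added after the data had been seen (6.40% against 6.09%, exact p = 0.533, Fisher's exact test). With either replicate left out, the forkhead share was 13.2 to 14.8% in peaks, against 11.0 and 10.9% in their flanks. The number of forkhead-only regions was 167 at a p-value of 1e-20, 310 in a 200-bp window, 280 with TGTTTAC only, 209 with TATTTAC only, 232 when EREs with 2 mismatches were also excluded, 102 when AP1 elements with 1 mismatch were, and 540 to 731 with either replicate left out. A match near the midpoint passed with the midpoint of the replicate 1 peak (31.9%, exact p = 0.0426) or the replicate 2 peak (31.3%, exact p = 0.0314) and within 100 bp (59.1%), gave 31.5 to 32.0% with either replicate left out, of which the replicate 2 list alone passed (exact p = 0.00789), and turned in direction in a 200-bp window (55.5% against 56.2%, exact p = 0.887).

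Score differences from regions with no motif were near 0 and changed sign, without passing, in replicate 2 at a p-value of 1e-10 (50.3% above the pooled median), with midpoints within 100 bp (50.9%) and with AP1 at 1 mismatch excluded (51%), and in both replicates with TGTTTAC only (51.1% in each). At 1e-20, replicate 1 was lower and passed (38.9% against 51.9%, exact p = 0.00251). The proximal share with TSSs of protein-coding genes only was 4.47% (exact p = 0.0812, unadjusted), against an unadjusted p of 0.0132 before. Those TSSs made 29 regions nearest to an induced gene (6.17%, against 5.57% of all shared regions) and 1 to a repressed gene, and any TSS within 100 kb gave 54 (11.5% against 9.80%) and 13. The lower overlap of replicate 2 peaks was 94.1% against 95.4% at 1e-10. Of 84 alternatives, 59 kept direction and side of the threshold, or a like count. Apart from fewer regions or windows entering, the causes of these changes were not tested.

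No paired analysis was possible because both replicates belong to 1 group. The regions rest on 2 pools of animals, the lists give neither depth nor summits, and motif letters do not show which protein was bound.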
